A study of Mus musculus with 79 samples.

Results

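Cyp2e1 and 6 other genes of oxidative detoxification were followed in the quadriceps of BXD mice on 2 diets. The 7 genes were Cyp2e1, Cyp2f2, Cyp4b1, Adh1, Aldh1a1, Fmo1 and Fmo2, out of 22335 gene symbols in the deposited table. They were taken by symbol, and each had a single probeset. Cyp2e1 was picked for its fall on high fat diet, which was the largest fall of all 35556 probesets, so the diet differences of the 7 genes are given as a description with intervals and no p-value. RNA was hybridised to 79 Affymetrix Mouse Gene 1.0 ST arrays. Each array carried a pool of about 5 males of a single strain, and variation among mice within a strain is therefore not visible in these data. The strains were inbred BXD lines, which carry mosaics of the C57BL/6J and DBA/2J genomes, and both parents. The chow diet cohorts (CD, Harlan 2018, 42 arrays) and the high fat diet cohorts (HFD, Harlan 06414, 37 arrays) were killed at 29 weeks of age after an overnight fast, the HFD cohorts having changed diet at 8 weeks. Arrays of both diets existed for 37 strains, and 5 strains had a CD array alone. RNA was extracted and hybridised in 2 batches, with 18 CD and 17 HFD arrays in the first and 24 CD and 20 HFD arrays in the second.

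The deposited values are scores on a log-type scale of unstated base, set so that the probesets of each array average 8.0 units and their SD is 2.0. A fold read from them as a power of 2 is therefore called nominal, and scores of different probesets are not compared as amounts of RNA. The muscle markers Acta1, Ckm and Myh4 averaged 14.77 to 15.17 units on both diets. Adipocyte markers were also measured in the tissue, with Adipoq at 9.72 ± 0.6 on CD (SD, n = 42). Markers of hepatocytes were dim, with means over 8 genes of 7.44 ± 0.33 on CD and 7.32 ± 0.29 on HFD, apart from 3 arrays. These were both BXD51 arrays and the CD array of BXD66, which had means of 8.82 to 8.83 and Alb, the serum albumin gene, at 11.5 to 11.64, where the next array (BXD73 on CD) had Alb at 9.03. Apoa1 averaged 8.46 on CD and 8.38 on HFD, and Ttr 6.94 and 6.92. The limma fit with diet and batch (adjusted p below 0.05) called 2 of the 8 hepatocyte markers lower on HFD and none higher, where 19.3% of all probesets were called lower. These were Ahsg, at -0.29 and lower in 33 of 37 strains, and Apoh, at -0.14 and lower in 29, while Fgb, at -0.15 and lower in 29, was not called. This is the direction of Cyp2e1 and Cyp2f2, but nothing is read from 2 calls among 8. On CD the hepatocyte mean had r = 0.359 with Cyp2e1 (permutation p = 0.0209, adjusted p = 0.163), or 0.226 without the 2 farthest arrays. With Cyp2f2 on HFD it had r = 0.284 and rho = 0.447 (permutation p = 0.0781 and 0.00598, adjusted p = 0.267 and 0.105). No relation of this mean with a member passed. The part of hepatocyte RNA in their diet difference was not tested beyond leaving out the 3 arrays. The BXD51 array on CD held the highest Cyp2e1 score of all, and the affected results are given with and without the 3 arrays. In such bulk tissue, fewer cells of a type and less RNA per cell cannot be told apart.

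Cytochromes P450 are heme enzymes of the endoplasmic reticulum that insert an oxygen atom into lipophilic substrates, using electrons from P450 reductase. CYP2E1 is the ethanol- and acetone-oxidising form, is abundant in liver and is known to be induced by fasting and ketosis there. CYP2F2 oxidises naphthalene in airway cells, and CYP4B1 oxidises fatty acids and some furans. Alcohol dehydrogenase and aldehyde dehydrogenase, encoded by Adh1 and Aldh1a1, act in sequence on alcohols, retinol included. Flavin monooxygenases, here FMO1 and FMO2, oxygenate nitrogen and sulfur atoms of foreign compounds without heme.

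The bases before the start sites of Cyp2e1 and Cyp2f2 are shown because these were the members whose scores were lower on HFD. RefSeq promoters (GRCm38.p6) were matched for 6 of the 7 genes, and the 250 bases before each start are printed 5′ to 3′ on the gene's strand, with capitals marking matches on either strand to any of 3 motifs. The first was TATAAA, the core at which the general transcription machinery is placed. The second was CCAAT, which the factor NF-Y is known to bind. The third was AGGTCA, the element to which many nuclear receptors bind as monomers or in pairs. The Cyp2e1 stretch is chr7:140763569-140763818 and the Cyp2f2 stretch chr7:27119705-27119954, both on the plus strand.
Cyp2e1: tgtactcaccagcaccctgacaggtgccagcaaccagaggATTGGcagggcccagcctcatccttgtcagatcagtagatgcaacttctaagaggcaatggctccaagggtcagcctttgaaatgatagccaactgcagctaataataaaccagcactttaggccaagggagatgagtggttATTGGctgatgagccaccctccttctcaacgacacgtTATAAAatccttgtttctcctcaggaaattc
Cyp2f2: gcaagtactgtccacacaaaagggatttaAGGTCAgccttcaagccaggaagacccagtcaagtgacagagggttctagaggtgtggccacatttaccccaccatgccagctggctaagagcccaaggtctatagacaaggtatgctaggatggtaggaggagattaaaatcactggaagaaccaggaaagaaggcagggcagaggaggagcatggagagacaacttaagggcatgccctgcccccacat
The Cyp2e1 stretch held TATAAA starting 31 bases before the start site, and CCAAT on the opposite strand at 210 and 68 bases before it. The Cyp2f2 stretch held a single AGGTCA, 221 bases before its start. Among all 32851 promoters of the table, 12.4% held TATAAA, 33.8% held CCAAT and 14% held AGGTCA in the same window on either strand. None of the letters searched was present in both stretches. These matches describe the letters alone.

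Cyp2e1 was lower on HFD in most strains, and its level varied over the pools of different strains more than that of nearly any other transcript. On CD it ran from 7.378 in BXD98 through a median of 9.664 to 11.361 in BXD51. On HFD it ran from 7.129 in BXD70 through a median of 8.396 to 10.78 in BXD63. The 2 diets overlapped widely, since the lowest CD array lay within the lower part of the HFD range. The means were 9.67 ± 0.86 (SD, n = 42) and 8.6 ± 0.8 (SD, n = 37), and the difference adjusted for batch was -1.07 units (SE 0.185, 95% interval -1.44 to -0.70). Cyp2e1 was lower on HFD in 30 of 37 strains, and 6.19% of probesets were lower in at least as many strains. Without the 3 arrays high in hepatocyte markers the difference was -1.04, and with the mean of the adipocyte markers as a covariate it was -1.39.

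The Cyp2e1 change varied widely over the strains. Each change rests on a single pool per diet, so differences in response between strains cannot be told apart from variation between pools. A score far from the mean on CD also tends, by itself, to give a change towards the mean. The mean change was -1.16 ± 1.11 units (SD, n = 37 strains), so the spread between strains was about as large as the mean change. In BXD81 the score was 10.815 on CD and 7.371 on HFD, a change of -3.44. BXD70 went from 10.524 to 7.129, a change of -3.39. At the other end, BXD98 moved from the lowest CD score to 9.023, a change of 1.64, and BXD63 moved from 9.596 to 10.78. Of the parents, C57BL/6J changed by -0.40 and DBA/2J by -2.18. By batch, the mean change was -1.32 in 12 strains run wholly in batch 1, -1.1 in 17 run wholly in batch 2 and -1.05 in the 8 strains run in both.

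**Figure D1:**
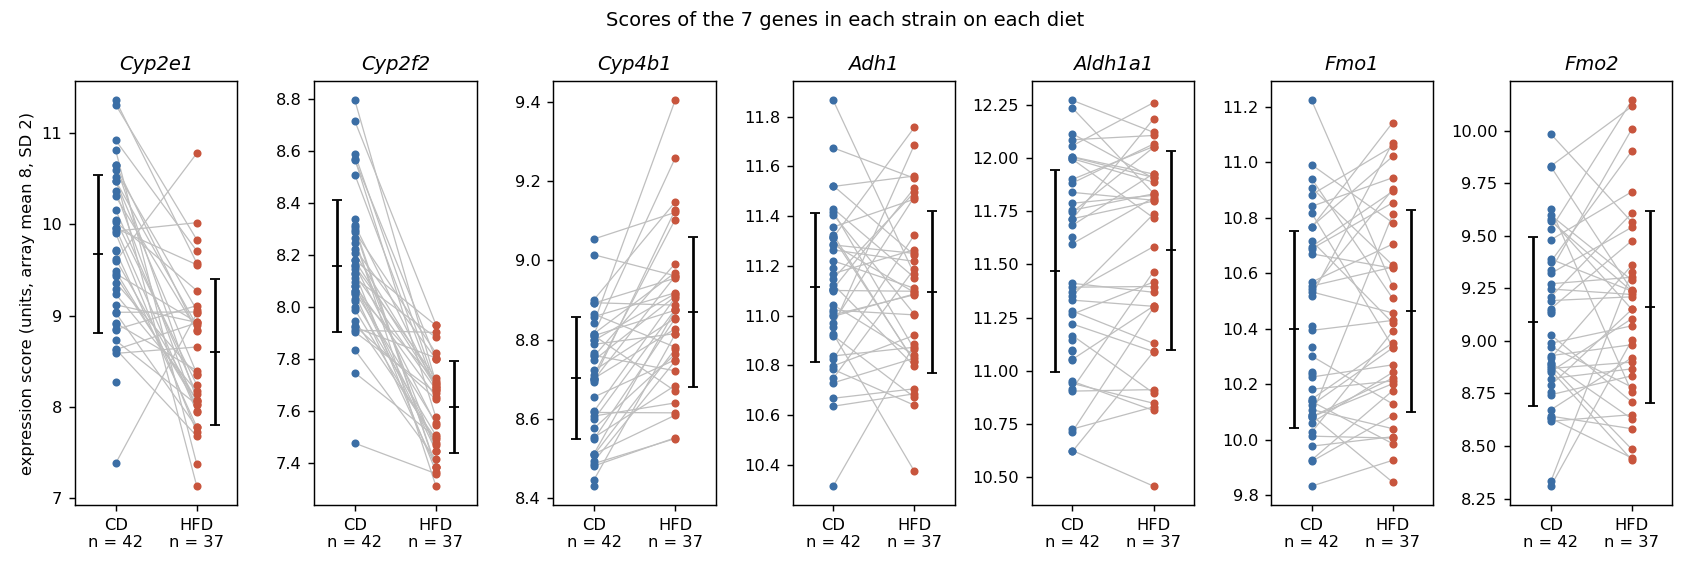
Scores of the 7 genes (vertical axis, units, with its own scale in each panel) on CD and HFD (horizontal axis). Each point is a pool of one strain, grey lines join the 2 diets of a strain, and black bars give the mean ± SD of 42 CD and 37 HFD arrays. Lines mostly descend for Cyp2e1, descend in all 37 strains for Cyp2f2 and mostly ascend for Cyp4b1.

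The strain range of Cyp2e1 was wide on both diets. From lowest to highest strain it spanned 3.98 units on CD, nominally 15.81-fold, and 3.65 units on HFD, nominally 12.56-fold. The 10th to 90th percentiles were 2.01 units apart on CD and 1.88 on HFD. Its SD between strains stood at percentile 99.7 of all probesets on CD and 99.6 on HFD. The top of the CD range did not rest on BXD51 alone, since BXD56 had 11.312. That BXD56 array, however, had the highest mean of the 14 adipocyte markers of all arrays, at 10.505. The bottom of the CD range rested on BXD98 and the top of the HFD range on BXD63. Without BXD98 the CD range was 3.09 units, nominally 8.53-fold, and without BXD63 the HFD range was 2.89 units, nominally 7.41-fold.

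Cyp2f2 was lower on HFD by fewer units than Cyp2e1, but in every strain. On CD it ran from 7.477 in BXD98 through 8.13 to 8.796 in BXD84, and on HFD from 7.312 in BXD62 through 7.656 to 7.933 in BXD63. The ranges overlapped, with the lowest CD scores inside the HFD range. The means were 8.16 ± 0.26 (SD, n = 42) and 7.62 ± 0.18 (SD, n = 37), with a difference of -0.54 units (SE 0.0499, 95% interval -0.64 to -0.44). Every one of the 37 strains had a lower score on HFD, from -1.09 in BXD84 to -0.01 in BXD79. Across all probesets, 6 (0.0169%) were lower in all strains. This is a description, since the members were chosen with the diet comparison known. Cyp2f2 was of middling brightness, at percentile 51 of mean score over all probesets.

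Strains with a higher Cyp2e1 score on HFD still had a lower Cyp2f2 score. BXD98, with the largest Cyp2e1 increase, changed by -0.12 in Cyp2f2. BXD63, with the next largest, changed by -0.78 in Cyp2f2, more than the average strain at -0.55 ± 0.27 (SD, n = 37).

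**Figure D2:**
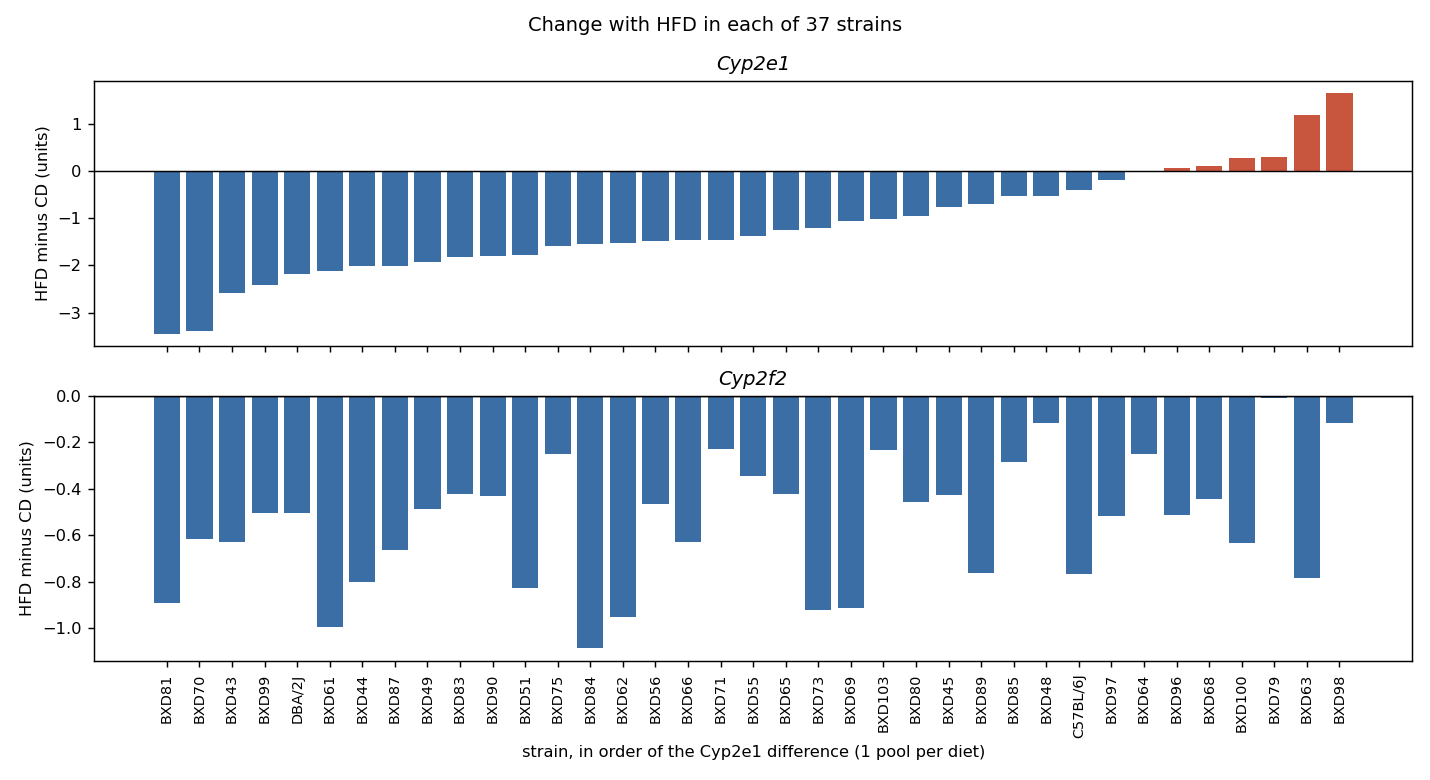
HFD minus CD score (vertical axis, units) of Cyp2e1 (top) and Cyp2f2 (bottom) in each of 37 strains, ordered along the horizontal axis by the Cyp2e1 change. Each bar is the difference between 1 pool per diet, blue where negative and red where positive. Cyp2e1 runs from -3.44 in BXD81 to 1.64 in BXD98, and all Cyp2f2 bars point down.

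Cyp4b1, the third P450, was slightly higher on HFD. It ran from 8.43 in BXD92a through 8.706 to 9.054 in BXD61 on CD, and from 8.55 in BXD84 through 8.874 to 9.404 in BXD79 on HFD. The difference was 0.17 units (SE 0.0389, 95% interval 0.09 to 0.24), and 31 of 37 strains were higher on HFD. Its direction was thus opposite to that of both CYP2 family members, and its strain range, 0.62 units on CD and 0.85 on HFD, was the narrowest of the 7 genes on CD.

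The dehydrogenases and flavin monooxygenases differed little between the diets. Adh1 had a median of 11.106 on CD (10.315 in C57BL/6J to 11.865 in BXD75) and 11.093 on HFD (10.375 in BXD70 to 11.756 in BXD79), with a difference of -0.02 units (95% interval -0.16 to 0.12). Aldh1a1 had a median of 11.402 on CD (10.622 in BXD70 to 12.27 in BXD69) and 11.736 on HFD (10.459 in BXD56 to 12.259 in BXD89), with a difference of 0.10 (95% interval -0.11 to 0.31). The ranges of both diets almost coincided for these genes. These intervals come from a fit that did not pair the arrays of a strain, so they include the spread between strains. By strain, the mean change was -0.01 ± 0.35 for Adh1 and 0.06 ± 0.24 for Aldh1a1 (SD, n = 37 strains).

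Fmo1 ran from 9.833 in BXD43 to 11.223 in BXD56 on CD and from 9.847 in BXD70 to 11.143 in BXD79 on HFD, a difference of 0.07 units (95% interval -0.09 to 0.23). Fmo2 ran from 8.309 in C57BL/6J to 9.985 in BXD73 on CD and from 8.433 in BXD70 to 10.145 in BXD79 on HFD, also a difference of 0.07 (95% interval -0.12 to 0.26). By strain, the mean change was 0.05 ± 0.28 for Fmo1 and 0.04 ± 0.4 for Fmo2 (SD, n = 37 strains). The strains were split in direction for these 4 genes, with higher scores on HFD in 18 of 37 strains for Adh1, 21 for Aldh1a1, 24 for Fmo1 and 22 for Fmo2. In the fit over all probesets (limma with a Benjamini-Hochberg adjusted p below 0.05, called below), 38.1% of probesets were called for diet, 18.9% as higher on HFD and 19.3% as lower. Of the 7 genes, Cyp2e1 and Cyp2f2 were called lower, Cyp4b1 was called higher and 4 were not called. Nothing is read from this count, since the diet comparison led to the choice.

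Covariation with Cyp2e1 between strains was asked next, within each diet and after batch means were removed. The scores of no gene fell into separate clusters of strains by the rule used. Cyp2f2 followed Cyp2e1 most closely on CD, with Pearson's r of 0.605 (permutation p = 7e-05) and Spearman's rho of 0.651 (permutation p = 2e-05) over 42 strains. The correlation was 0.494 without the 2 strains farthest from the median of Cyp2e1, 0.569 in batch 1 and 0.63 in batch 2. Among the 21 pairs of the 7 genes in CD, HFD and the change, 63 correlations were computed. Across all probesets the fit called 3 of 35555 with Cyp2e1 on CD, 0.00844%, with 2047 at an unadjusted p below 0.05, and Cyp2f2 did not pass, at an adjusted p of 0.0718. It passed without BXD63 (0.0455), with the dimmer probesets left out (0.0352) and with the adipocyte markers as a covariate (0.0286). Without the 3 arrays high in hepatocyte markers r was 0.577 and the adjusted p 0.154.

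On HFD the relation of Cyp2f2 with Cyp2e1 was smaller and did not pass. Its r was 0.256 (permutation p = 0.126) and rho 0.143 (permutation p = 0.396) over 37 strains, with 0.514 in batch 1 and 0.032 in batch 2. The difference between the diets' correlations was not tested. The changes of both genes correlated at r = 0.45 (permutation p = 0.00498) and rho = 0.393 (permutation p = 0.0166), but the adjusted p over all probesets was 0.805. The r was 0.723 among strains whose pools were both in batch 2 and 0.019 among those whose pools were both in batch 1, so it did not hold within both batches.

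**Figure D3:**
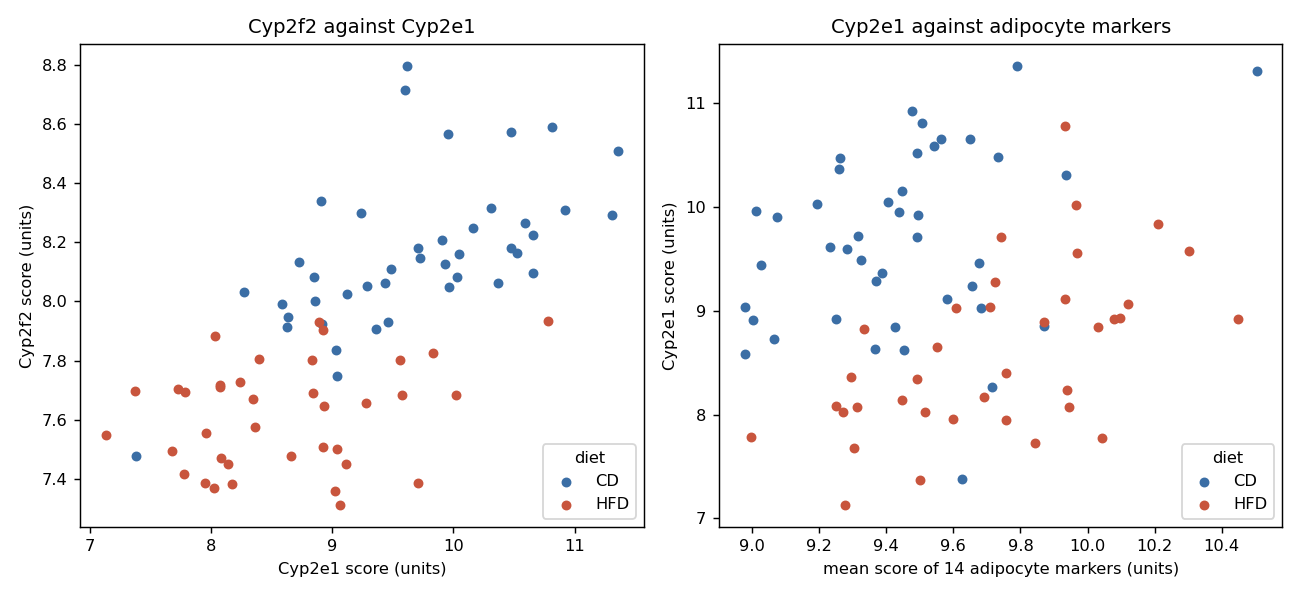
Left, Cyp2f2 score (vertical axis, units) against Cyp2e1 score (horizontal axis, units). Right, Cyp2e1 score (vertical axis, units) against the mean score of 14 adipocyte markers (horizontal axis, units). Each point is an array, blue for 42 CD and red for 37 HFD arrays. Cyp2f2 rises with Cyp2e1 most clearly on CD (r = 0.605), and Cyp2e1 rises with adipocyte markers most clearly on HFD (r = 0.56).

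The other 5 genes were at most weakly related to Cyp2e1. Aldh1a1 ran against it on CD (r = -0.365, permutation p = 0.0179, rho = -0.385, permutation p = 0.0126), with -0.146 in batch 1 and -0.519 in batch 2 and an adjusted p of 0.71. On HFD it had r = -0.204 (permutation p = 0.224) and rho = -0.066 (permutation p = 0.697). Cyp4b1 had r of 0.187 on CD and 0.101 on HFD, Adh1 0.098 and 0.089, Fmo1 0.098 and 0.249, and Fmo2 0.134 and 0.114, with permutation p between 0.138 and 0.602. None of the 6 genes was called with Cyp2e1 by limma on CD, on HFD or for the change. On HFD limma called 0% of the 35555 probesets, with 2621 at an unadjusted p below 0.05, and for the change 0.00281%, with 1899.

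The transcripts nearest to Cyp2e1 included Cfd and Pck1, both on the adipocyte marker list. Over all 79 arrays, with the mean of each diet and batch removed, the highest r of any gene were those of Cfd (0.609), which encodes adipsin, Sik2 (0.597), a kinase, Pck1 (0.573), which encodes the cytosolic PEP carboxykinase of gluconeogenesis and glyceroneogenesis, Rbp4 (0.566), a retinol carrier, and Klf10 (0.557), a transcription factor. Cyp2f2 ranked 13 of 22334 genes, with 0.474, and Aldh1a1 ranked 22021, with -0.293. The lowest r were those of Gbas (-0.473), Clip4 (-0.467) and Acaa2 (-0.463), the last a mitochondrial enzyme of fatty acid oxidation. These genes were selected for their r, which is therefore given without a test.

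Adipocyte markers ran with Cyp2e1 across strains on HFD, and in the other direction between the diets. Their mean over 14 genes was 9.44 on CD (8.98 to 10.5) and 9.73 on HFD (9.0 to 10.45), the opposite direction to Cyp2e1. On HFD, where limma called 8 of the 14 genes higher and 1 lower (18.9% and 19.3% of all probesets), Adipoq differed by 0.54 (SE 0.141), Plin1 by 0.37 (SE 0.0955), Cidec by 0.75 (SE 0.136) and Cfd by -0.61 (SE 0.114), and Retn, at 0.25 (SE 0.119), was not called. Within HFD the marker mean correlated with Cyp2e1 at r = 0.56 (permutation p = 0.00031, adjusted p = 0.0145) and rho = 0.555 (permutation p = 0.00052, adjusted p = 0.0182), adjusted over 140 relations of 10 marker lists with the 7 genes in each diet. It was 0.392 in batch 1 and 0.701 in batch 2, and 0.56 without the 2 arrays farthest from the median of the markers. On CD it was 0.306 (permutation p = 0.0479, adjusted p = 0.203). The part of adipocyte content in the strain differences of Cyp2e1 was not tested.

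Fmo1 and Fmo2 were the most closely correlated pair of the 7 genes on both diets. These genes, which lie next to each other in the RefSeq gene table, had r = 0.861 on CD and 0.879 on HFD (permutation p = 1e-05 in each, the smallest possible), with limma adjusted p of 4.03e-09 and 1.07e-08. The share of probesets called with Fmo1 was 0.354% on CD and 0.0309% on HFD, and with Fmo2 it was 5.36% on CD and 0.385% on HFD. In single batches r lay between 0.818 and 0.919 on both diets. Their rho was 0.846 on CD and 0.857 on HFD (permutation p = 1e-05 in each), and r without the 2 strains farthest from the median was 0.854 and 0.851. Their changes correlated at r = 0.768 and rho = 0.794 (permutation p = 1e-05 in each, adjusted p = 0.000852), where 6.53% of probesets were called with the change of Fmo1 and 26.5% with that of Fmo2.

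Adh1 was called with Cyp4b1 and with both flavin monooxygenases on HFD. With Cyp4b1 it had r = 0.663 and rho = 0.633 on HFD (permutation p = 1e-05 and 6e-05, adjusted p = 0.00341), where 4.27% of probesets were called with Cyp4b1. With Fmo2 it had r = 0.598 and rho = 0.527 (permutation p = 0.00014 and 0.00084, adjusted p = 0.00214), and with Fmo1 r = 0.408 and rho = 0.331 (permutation p = 0.0127 and 0.0454, adjusted p = 0.0461), or r = 0.252 without the 2 farthest strains. These calls stand against a background in which Adh1 was called with 23.5% of all probesets on HFD, so nothing particular to these genes is read from them. Cyp4b1 had r = 0.46 with Fmo1 on HFD (permutation p = 0.0043, adjusted p = 0.0611), which was not called, and r = 0.602 with Fmo2 (permutation p = 0.00012, adjusted p = 0.00922), which was. On CD the pairs of Adh1 with Cyp4b1, Fmo2 and Fmo1 had r of 0.548, 0.405 and 0.268, and none was called, where 0% of probesets were called with Cyp4b1 (2564 at an unadjusted p below 0.05) and 0.0225% with Adh1.

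Of the 6 pairs among Adh1, Cyp4b1, Fmo1 and Fmo2, 5 were called for the change with diet. The change of Adh1 correlated with that of Fmo2 at r = 0.877 and rho = 0.783 (permutation p = 1e-05 in each, adjusted p = 1.25e-07) and with that of Fmo1 at r = 0.792 and rho = 0.789 (permutation p = 1e-05 in each, adjusted p = 7.16e-05). Within strains sharing a batch, the first was 0.758 and 0.881 and the second 0.542 and 0.898. Here again 19.2% of all probesets were called with the change of Adh1 and 26.5% with that of Fmo2. BXD69 had the largest increases of both Adh1, 0.73, and Fmo2, 1.0, while BXD75 had the largest decreases, -0.7 and -0.87. Cyp4b1 and Fmo2 changes correlated at r = 0.597 and rho = 0.43 (permutation p = 0.00016 and 0.00845, adjusted p = 0.0218), with 1.51% called for Cyp4b1, and with r of 0.291 and 0.544 in strains run wholly in batch 1 and 2. Those of Cyp4b1 and Adh1 correlated at r = 0.64 and rho = 0.569 (permutation p = 3e-05 and 0.00033, adjusted p = 0.0105), with 0.198 and 0.719 in the same classes. Those of Cyp4b1 and Fmo1, at r = 0.499 (permutation p = 0.00162, adjusted p = 0.0787), were not called.

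**Figure D4:**
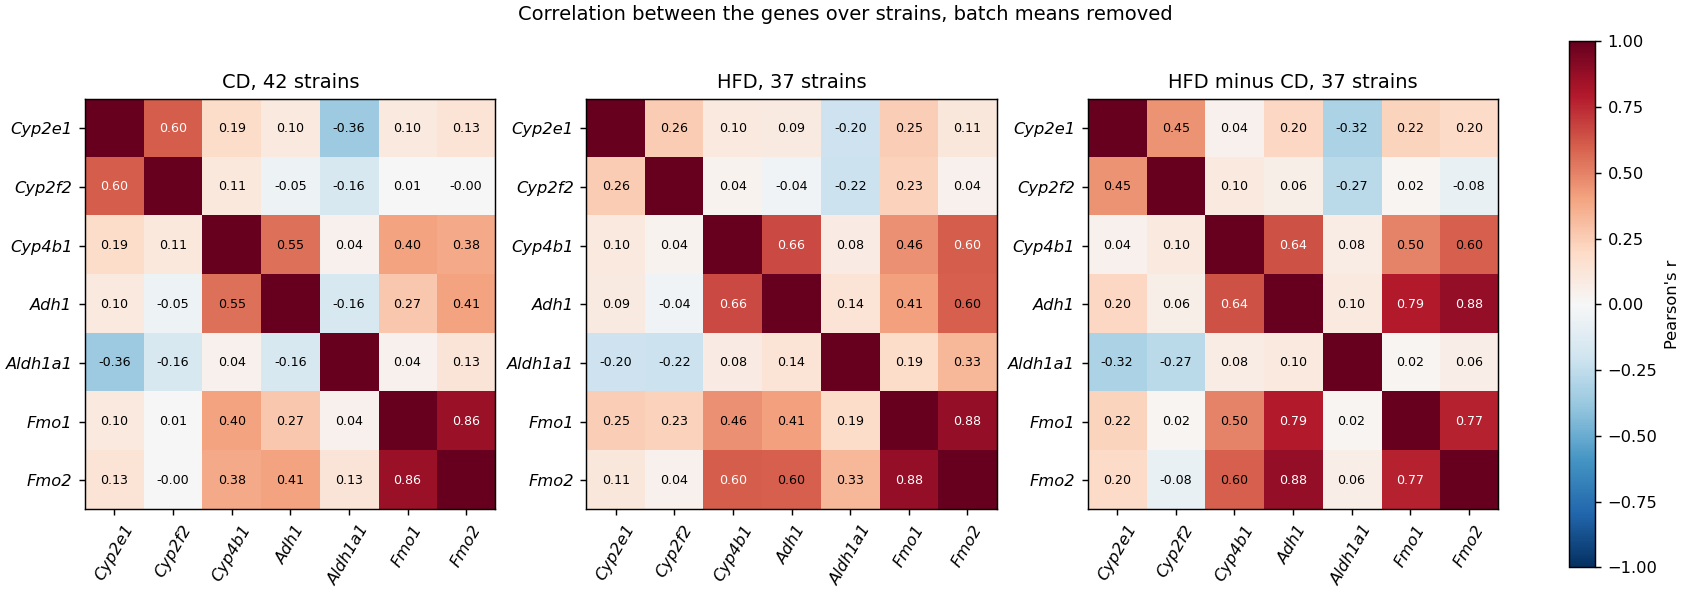
Pearson's r between the 7 genes over strains, after batch means were removed, in CD (42 strains), in HFD (37 strains) and for the HFD minus CD change (37 strains). Colour runs from blue at -1 to red at 1, and each cell gives r. Among Cyp4b1, Adh1, Fmo1 and Fmo2 r runs from 0.408 to 0.879 on HFD, and Cyp2e1 with Cyp2f2 has 0.605 on CD.

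Markers of vessel cells were related to some of these genes. Of 16 relations of 2 vessel marker lists with Adh1, Cyp4b1, Fmo1 and Fmo2 in each diet, 6 passed for r, and the other 10 had adjusted p from 0.0725 to 0.474. On HFD 23.5% of all probesets were called with Adh1. The mean of 5 smooth muscle and pericyte markers correlated on HFD with Adh1 at r = 0.584 (permutation p = 0.00016, adjusted p = 0.0145, rho = 0.558 with permutation p = 0.00035), with Cyp4b1 at 0.568 (permutation p = 0.00028, adjusted p = 0.0145, rho = 0.549 with permutation p = 0.00044) and with Fmo2 at 0.486 (permutation p = 0.00227, adjusted p = 0.0397), where rho, at 0.42, did not pass (permutation p = 0.0103, adjusted p = 0.136). On CD it correlated with Fmo1 at 0.49 (permutation p = 0.00082, adjusted p = 0.0255, rho = 0.471 with permutation p = 0.00183), and the mean of 8 endothelial markers did so at 0.493 (permutation p = 0.00091, adjusted p = 0.0255, rho = 0.518 with permutation p = 0.00051). Of the 140 relations, 8 passed for r and 6 for rho. Endothelial markers and Adh1 on HFD (r = 0.49, permutation p = 0.00221, adjusted p = 0.0397) missed for rho (0.4, permutation p = 0.0149, adjusted p = 0.154). Adh1 ran against the skeletal muscle markers on HFD (r = -0.514, permutation p = 0.00122, adjusted p = 0.0285, rho = -0.505 with permutation p = 0.00162), with -0.243 in batch 1 and -0.626 in batch 2. Between the diets, limma called 4 of 8 endothelial markers higher on HFD (Emcn by 0.28, Kdr by 0.2, Pecam1 by 0.17 and Cdh5 by 0.15) and 3 of 5 smooth muscle and pericyte markers (Acta2 by 0.25, Pdgfrb by 0.11 and Cspg4 by 0.09), and none lower, beside the 0.17 of Cyp4b1, where 18.9% of all probesets were called higher. The endothelial list ran from 9.61 to 10.36 on CD and from 9.91 to 10.46 on HFD. The smooth muscle list ran from 9.69 to 10.37 on CD and from 9.85 to 10.52 on HFD. Macrophage markers were higher as well, with 6 of 7 called (Cd68 by 0.39 and Adgre1 by 0.37 the most) and their mean at 8.7 ± 0.18 on CD and 8.91 ± 0.22 on HFD (SD). On HFD Cyp4b1 had r = 0.458 with the macrophage mean (permutation p = 0.0041) and -0.462 with the skeletal muscle mean (permutation p = 0.00374), neither of which passed (adjusted p = 0.0574 in each). The part of these cell types in the covariation and in the diet difference of Cyp4b1 was not tested.

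The degree to which strains kept their order from CD to HFD varied among the 7 genes, though differences between genes were not tested. Cross-diet correlations over the 37 paired strains passed the adjusted threshold for 10.6% of all probesets, whose median r was 0.14. Aldh1a1 had r = 0.879 and rho = 0.866 (permutation p = 1e-05 in each, the smallest possible, adjusted p = 2.12e-10), at percentile 99.6 of all probesets, and lay between 0.75 and 0.882 in every class of batch. Fmo1 had r = 0.717 (permutation p = 1e-05, rho = 0.744 with permutation p = 1e-05, adjusted p = 3.38e-05), Cyp4b1 0.589 (permutation p = 0.00017, rho = 0.64 with permutation p = 3e-05, adjusted p = 0.00288) and Fmo2 0.582 (permutation p = 0.00016, rho = 0.594 with permutation p = 0.00015, adjusted p = 0.00342). So 4 of the 7 genes passed.

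Cyp2e1, with the widest strain range of the 7 on both diets, kept little of its strain order from CD to HFD. Its cross-diet r was 0.098 (permutation p = 0.566) and rho 0.055 (permutation p = 0.746), with an adjusted p of 0.807. Where both arrays of a strain came from batch 1 it was 0.218, where both came from batch 2 it was -0.148, and in the 8 strains split between batches it was 0.635. BXD81 and BXD70, among the higher strains on CD, were the 2 lowest on HFD. Adh1 (r = 0.417, permutation p = 0.0106, rho = 0.423 with permutation p = 0.0103, adjusted p = 0.0791) and Cyp2f2 (r = 0.414, permutation p = 0.0106, rho = 0.362 with permutation p = 0.0281, adjusted p = 0.082) lay between and did not pass.

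**Figure D5:**
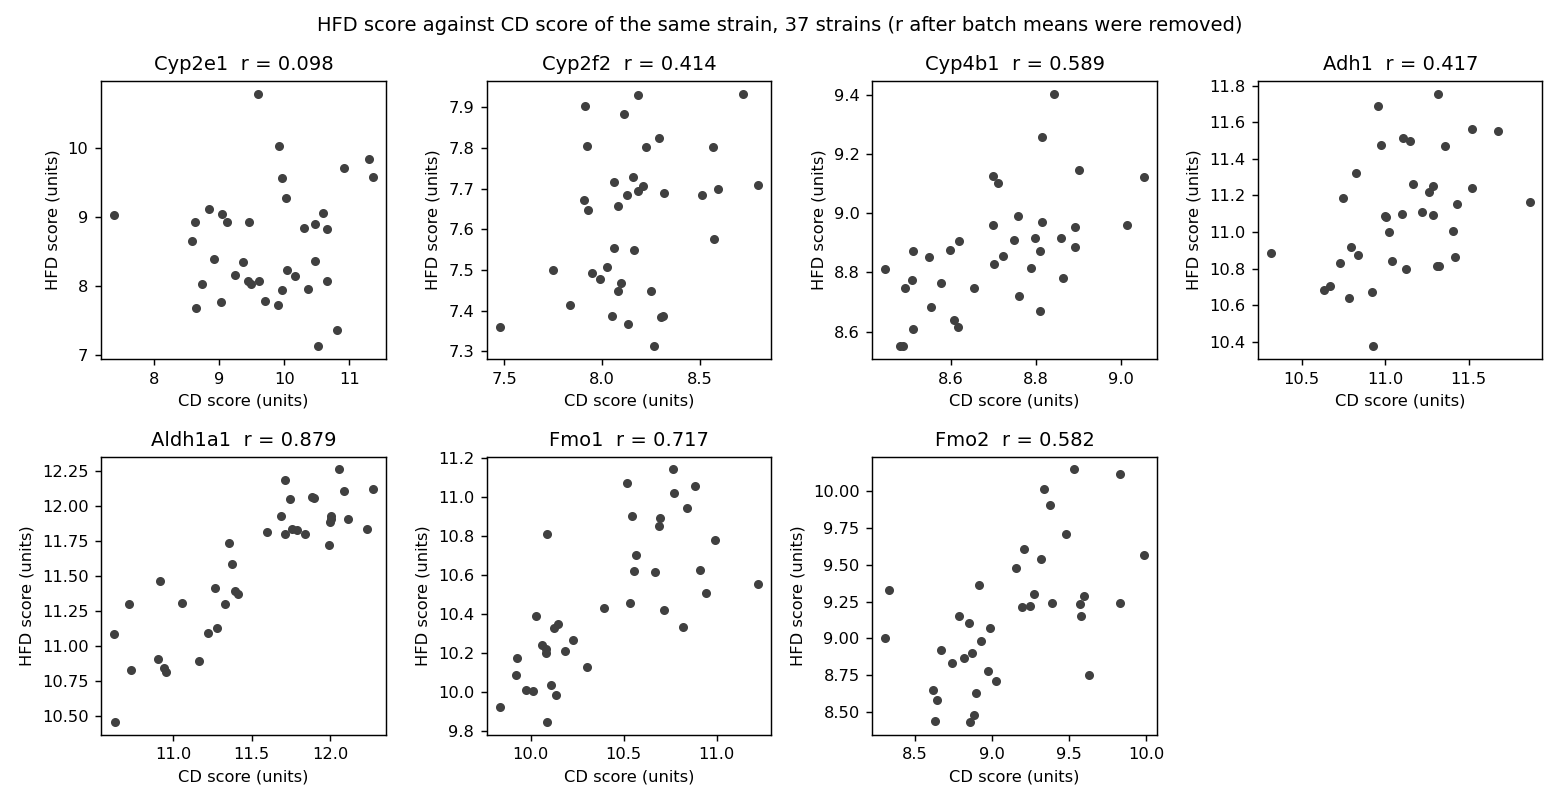
HFD score (vertical axis, units) against CD score (horizontal axis, units) of the same strain for each gene, 37 strains per panel, with Pearson's r after batch means were removed. Points follow a line most closely for Aldh1a1 (0.879) and Fmo1 (0.717) and are scattered for Cyp2e1 (0.098).

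The parental strains were compared over both diets, borrowing the spread of all paired strains. The fit called 1.26% of probesets between C57BL/6J and DBA/2J, and none of the 7 genes. Aldh1a1 came nearest. It had scores of 11.899 on CD and 12.053 on HFD in C57BL/6J, and of 11.411 and 11.369 in DBA/2J, a difference of 0.59 units (SE 0.163, 95% interval 0.26 to 0.92, limma adjusted p = 0.0663). Both C57BL/6J arrays lay above both DBA/2J arrays.

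Adh1 was lower in C57BL/6J, at 10.315 and 10.884 against 11.22 and 11.11 in DBA/2J on CD and HFD, a difference of -0.57 (95% interval -1.05 to -0.08, limma adjusted p = 0.435). Cyp2e1 was alike in the parents on CD, at 9.957 in C57BL/6J and 9.905 in DBA/2J, and apart on HFD, at 9.558 and 7.722, and the parental difference over both diets was 0.94 with a wide interval of -0.60 to 2.49. There was 1 pool per parent and diet, and the size of difference that these 4 arrays could show was not tested.

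The wider set of detoxification genes was called in both directions with diet. Of 151 other genes in 9 lists, limma called 39 higher (25.8%) and 31 lower (20.5%) on HFD and did not call 81, beside 18.9% and 19.3% of all probesets. With each array centred on its median the shares were 29.8% and 15.9%, beside 23.1% and 16.2%. With the adipocyte marker mean as a covariate the balance turned, with 29 called higher (19.2%) and 35 lower (23.2%), beside 16.2% and 16.7%. The median difference was 0.03 units, and -0.001 over all probesets. Among the 82 of them whose probesets lay above the median brightness, 15 were called higher (18.3%) and 9 lower (11%), beside 17.1% and 12.6% of all probesets of that brightness. None of the called genes differed by as much as Cyp2e1 or Cyp2f2, but nothing is read from this, since the diet comparison led to the choice of the members.

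Among 33 other P450 genes, 7 were called higher and 10 lower, where 18.9% and 19.3% of all probesets were. The largest differences were in dim probesets, at -0.43 (SE 0.049) for Cyp4a12a, a fatty acid hydroxylase, 0.25 (SE 0.0354) for Cyp2b9 and -0.22 (SE 0.0287) for Cyp4x1. The list's highest r with Cyp2e1 were those of Cyp2j9 (0.322) and Cyp1b1 (0.234), neither of them called for diet. Of 11 electron and heme partners of the P450s, 4 were called higher and 1 lower, beside the same shares. Neither list was tested against them. Por, the P450 reductase, differed by 0.14 (SE 0.0398), Cyb5a, its cytochrome b5 partner, by 0.15 (SE 0.0582) and Pgrmc1, a heme-binding protein, by 0.13 (SE 0.0405). With the adipocyte marker mean as a covariate all 3 calls were lost, with differences of 0.07 (limma adjusted p = 0.152), 0.01 (0.888) and 0.06 (0.268). In batch 1 alone they were 0.13 (0.235), 0.15 (0.311) and 0.12 (0.222), and in batch 2 alone Cyb5a, at 0.15 (0.144), and Pgrmc1, at 0.13 (0.0582), were not called either.

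Of 7 other alcohol dehydrogenases, Adh6b, of a dim probeset (percentile 18.9), was called higher by 0.26, and Adhfe1 and Adh5 were called lower, at -0.12 and -0.1. Both of the latter calls were lost with each array centred on its median (differences of -0.10 and -0.08, limma adjusted p = 0.101 and 0.12) and in each batch alone (-0.15 and -0.09 for Adhfe1, -0.08 and -0.11 for Adh5), and that of Adhfe1 also without BXD63 (0.0558), without dim probesets (0.0521) and without the 3 arrays high in hepatocyte markers (0.0532). Adh4, with the list's highest r with Cyp2e1 (0.125), differed by 0.01 and was not called. Of 18 other aldehyde dehydrogenases, 4 were called higher and 5 lower. Of all probesets, 18.9% were called higher and 19.3% lower, and no list in this paragraph was tested against these shares. Aldh1a7, the neighbour and close relative of Aldh1a1, was higher by 0.32 units (SE 0.0686) and in 33 of 37 strains, or by 0.19 with the adipocyte covariate (limma adjusted p = 0.0214). Aldh4a1, of proline breakdown, differed by -0.27 (SE 0.0842) and Aldh1l1, of folate metabolism, by -0.21 (SE 0.037), and the call of Aldh4a1 was lost in each batch alone, at -0.29 (adjusted p = 0.107) and -0.26 (0.0927). With strain as a replicate block Aldh4a1 differed by -0.26 (adjusted p = 1.71e-08), and it was lower in 34 of 37 strains. Aldh18a1 had the list's highest r with Cyp2e1, 0.239, and was not called. Of the 4 other flavin monooxygenases, Fmo4 and Fmo9 were called higher, by 0.13 and 0.1, and Fmo5, at 0.05, was not called.

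The enzymes that act after oxidation were also mixed. Of 21 glutathione transferases, 3 were called higher and 6 lower, where 18.9% and 19.3% of all probesets were. Gsta3 differed by -0.43 (SE 0.0488) and was higher on HFD in 1 of 37 strains. Mgst2 differed by -0.21 (SE 0.0302) and Gstt2 by 0.16 (SE 0.0387). The probesets of Gsta3 and Mgst2 were dim, at percentiles 32.8 and 28.5 of mean score. Mgst1 had the list's highest r with Cyp2e1, 0.381, and was not called. Of 25 other conjugation and reduction enzymes, 11 were called higher and 3 lower, beside the same 18.9% and 19.3%. Neither list was tested against these shares. The glucuronosyltransferase Ugt2b5 differed by 0.39 (SE 0.0455), Ephx2, the soluble epoxide hydrolase, by 0.35 (SE 0.0674) and Nat1, an acetyltransferase, by 0.3 (SE 0.04). The probesets of Ugt2b5 and Nat1 were dim, at percentiles 11.5 and 18.2 of mean score. Ces1f, a carboxylesterase of a dim probeset (percentile 28.3), differed by -0.28 (SE 0.0703) and had the list's highest r with Cyp2e1, 0.415. With the adipocyte covariate its difference was -0.48. Sult1e1, an estrogen sulfotransferase of a very dim probeset, differed by -0.28 (SE 0.0701) and had r of 0.273.

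Of 17 genes of retinoid handling, 5 were called higher and 1 lower, where 18.9% and 19.3% of all probesets were. Crabp1, which binds retinoic acid, differed by -0.25 (SE 0.0439) and Rarg, a retinoic acid receptor, by 0.2 (SE 0.0245). Rbp4 had the list's highest r with Cyp2e1, 0.566, and Rdh10, a retinol dehydrogenase, had 0.14. Neither was called, but with the adipocyte covariate Rbp4, at 0.01 without it, differed by -0.24 (limma adjusted p = 0.000616). Of 15 regulators of detoxification genes, 2 were called higher and 3 lower, beside the same shares. Neither list was tested against them. Cebpa and Pparg, both also known as adipocyte regulators, differed by 0.27 (SE 0.041) and 0.26 (SE 0.0432), or by 0.16 and 0.17 with the adipocyte covariate. Rxra, the common partner of nuclear receptors, had the list's highest r with Cyp2e1, 0.175, and was not called. Nr1i2 and Nr1i3, which encode the xenobiotic receptors PXR and CAR, differed by -0.15 (SE 0.0322) and -0.13 (SE 0.0343) in dim probesets.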

How the data were processed

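The deposited table held one score per probeset and array, made by the authors with Affymetrix Expression Console per the labels, scaled so that 35556 probesets per array average 8.0 with an SD of 2.0. The log base, summarisation, background method and batch correction were not given in the sources used here. Tests planned for log2 values were run on the scores. Precision is limited by the number of arrays, which have no read depth. All value columns were used, and the CD column for BXD92 was matched to the title BXD92a. The labels gave diet, strain and batch.

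The diet effect was fitted with limma 3.58.1 (lmFit, eBayes, R 4.3.3) on all probesets with diet and batch, at a Benjamini-Hochberg adjusted p below 0.05. This fit used all arrays and did not pair those of a strain, so its SEs, intervals and calls ignore the pairing. Strain as a replicate block was an alternative. Covariation was fitted in the same way with a gene's score as predictor within a diet, and for HFD minus CD changes. Pearson's r and Spearman's rho were given two-sided permutation p-values (100000 draws, smallest attainable p 1e-05). Parents were compared with coefficients for strain, diet and batch. The diet by batch interaction gave 0 limma calls, and its unadjusted p was below 0.05 for 0 probesets, fewer than chance would give, so this interaction is not used as a test. Separate clusters of strains would have been called where the BIC favoured 2 normal components over 1 by at least 10 and Ashman's D was above 2. The limma steps were tested on simulated data.

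Arrays of a strain were paired by the strain name. Deviations from the diet and batch means correlated between arrays of the same strain at a median r of 0.205, above 0.1 in 33 of 37 strains. Between different strains the median was -0.005, with 239 of 1517 pairs above 0.1. The highest r was 0.392 for the same strain and 0.4 for different strains. Permutations and figures used scipy 1.17.1 and matplotlib 3.10.9 in Python 3.11.15, with scikit-learn 1.9.0, pandas 2.3.3 and numpy 2.4.6.

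The members and lists were chosen with earlier results of these data known. Of 154 genes in the 9 detoxification lists, 151 were in the table, 5 under an older symbol. The named genes were the 7 members, the 5 genes with the highest and the 3 with the lowest r with Cyp2e1, in each list up to 3 called genes of largest difference and up to 2 of highest r with Cyp2e1, and defining cell type markers. The values of 2 genes that this rule named are not reported here. The alternatives varied batch terms, arrays, strains, tests, normalization, dim probesets and an adipocyte covariate. The setting without the 3 arrays highest in hepatocyte markers was chosen after seeing the data.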

Additional observations from a re-analysis of the deposited data

Results flagged for a closer look

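The changes with HFD had opposite signs in the 2 parental strains for 4 of the 7 genes, as they had for 39.8% of all probesets. With 1 pool per strain and diet, the difference was not tested. Adh1 changed by 0.57 in C57BL/6J and by -0.11 in DBA/2J, 0.68 units apart. Fmo1 changed by 0.72 and -0.17, which is 0.9 apart. Fmo2 changed by 0.7 and -0.27, which is 0.96 apart. Aldh1a1 changed by 0.15 and -0.04, only 0.2 apart. Vessel markers also differed between these arrays, with the mean of 8 endothelial markers going from 9.629 on CD to 10.234 on HFD in C57BL/6J and from 10.203 to 10.227 in DBA/2J. The mean of 5 smooth muscle and pericyte markers went from 9.693, the lowest of all CD arrays, to 10.116 in C57BL/6J and from 10.133 to 10.18 in DBA/2J. Their part in the parental difference was not tested.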

How the results depend on the processing

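The diet differences of Cyp2e1 (-1.39 to -1.01), Cyp2f2 (-0.62 to -0.48), Cyp4b1 (0.13 to 0.19) and Aldh1a1 (0.06 to 0.2) kept their direction under 10 alternatives each, and with strain as a replicate block they were -1.16, -0.55, 0.16 and 0.06. Fmo1 ran from -0.03, with the adipocyte covariate, to 0.09, Fmo2 from 0.02, with the same covariate, to 0.1, and Adh1 from -0.06 to 0.01. The values from each batch alone and with no batch term are no independent check, since the diet by batch interaction had fewer small p-values than chance gives, 0 of 35556 below an unadjusted 0.05. No other probeset of a member existed, so that alternative gave no value. With the block, 48 detoxification genes were called higher and 35 lower, and with median centring 45 and 24. Against 39 higher and 31 lower, batch 1 alone gave 17 and 10, batch 2 alone gave 27 and 20, without dim probesets there were 15 and 9, and with the adipocyte covariate 29 and 35. The adipocyte covariate ended the calls of Por, Cyb5a and Pgrmc1 and brought Mgst1 past the threshold (-0.2, adjusted p = 0.0476), and quantile normalization ended that of Cyb5a (0.0555). Signs turned, in genes that had not been called, for Cyp1b1 (-0.06), Cyp2j9 (-0.04) and Rbp4 (-0.24, called) with the adipocyte covariate, for Rbp4 under the replicate block and without the parents (-0.01 each), and for Mgst1 in batch 1 (0.01).

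On CD, 1 member (Cyp2f2) rather than 0 was called with Cyp2e1 without BXD63, without dim probesets and with the adipocyte covariate. The probesets called there, 3 in the fit as reported, numbered 8 with no batch term, 1 in each batch alone, 5 without the parents, 6 after quantile normalization, 11 without dim probesets and 31 with the covariate. For the change, the 1 called probeset was lost within either batch class and without BXD63. Uncalled r of Cyp2e1 turned sign in batch 1 on HFD with Cyp4b1 (-0.046), Adh1 (-0.121), Fmo1 (-0.0) and Fmo2 (-0.201), with the covariate for Cyp4b1 (-0.074) and Adh1 (-0.007), and for changes in batch 1 strains with Cyp4b1 (-0.291) and Adh1 (-0.081). Across diets, 2 rather than 4 members passed when both pools of a strain had to be in batch 2, where Cyp2e1 had r = -0.148. The 10th to 90th percentile range of Cyp2e1 was 2.01 units on CD and 1.88 on HFD, against 3.98 and 3.65 from lowest to highest strain, or 3.09 without BXD98 and 2.89 without BXD63 (chosen after seeing the data). No parental call changed. Fewer arrays were used in the subsets, and other causes of these shifts were not tested.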
